A study of Mus musculus with 16 samples.

Results

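Nuclear tRNA-Ala with the AGC anticodon was followed through 16 mouse tRNA libraries, 8 from mouse embryonic fibroblasts (MEFs) and 8 from hearts. Its members are the rows of the deposited count tables whose name begins with tRNA-Ala-AGC, mitochondrial and tRX rows left out, which gave 17 of 819 rows in the MEF table and 17 of 821 in the heart table. Each row is a group of tRNA transcripts given 1 running number, and it is called here by its anticodon and number, such as AGC-4. By the labels, the RNA of all libraries came from the m.5024T mouse model, in a study of base editing aimed at mitochondrial tRNA-Ala, so the members are nuclear tRNAs for the same amino acid as the edited mitochondrial one.

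The MEF libraries were 2 passages each of 4 cell lines, named Ctrl_1, Cl_1, Cl_2 and Cl_3, so each line is 1 line. A p-value from a model fitted to these libraries measures the spread between passages. The hearts were 4 from mice given AAV9-GFP, a heart-tropic viral vector carrying a fluorescent control protein, and 4 from mice given AAV9-DdCBE, the same vector type carrying a base editor for mitochondrial DNA. Among the AAV9-GFP hearts, mice 5 and 6 were labelled 5X and mice 14 and 19 were labelled 3X. Among the AAV9-DdCBE hearts, mice 17 and 18 were labelled 10X, mouse 25 5X and mouse 26 2X. The labels explain neither Ctrl, Cl nor the X labels, and give no age. The tables hold tRNA rows alone, so tissue and cell labels could not be set against marker genes.

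A tRNA with the AGC anticodon carries alanine to the cytosolic ribosome. Its first anticodon base, adenosine, is deaminated to inosine by the ADAT2-ADAT3 enzyme, which lets 1 tRNA read several alanine codons. Members that share an anticodon but differ elsewhere in the molecule are called isodecoders; each is transcribed by RNA polymerase III from its own gene or group of identical genes, and they deliver the same amino acid. A RefSeq table of the earlier build GRCm38.p6 lists 13 genes named for this tRNA, all 72 or 73 bases long, so counts of different members were set side by side as levels per molecule. Their names could not be paired with the running numbers (0 of 17 matched).

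A few members made up nearly all of the tRNA. AGC-1, AGC-2, AGC-3, AGC-4, AGC-5, AGC-6, AGC-7 and AGC-10 held at least 99.97% of the AGC counts in every MEF library and at least 99.98% in every heart. AGC-12 had 7 to 37 counts in the MEF libraries and 2 to 7 in the hearts. In the MEFs, 9 members passed the filter on low counts, 3 had at most 3 counts in any library (AGC-8, AGC-9 and AGC-13) and 5 had none. In the hearts 8 passed, AGC-9 and AGC-12 were counted without passing, and 7 had none. A count of 0 allows a share of up to 0.0019% to 0.0129% of the AGC counts of a library (3 counts of its total). A MEF library had between 1473330 and 4375975 counts and a heart library between 1540287 and 3037178, of which 23278 to 158091 were AGC counts; counting error on a member's share was at most 1.24 points wide (95% Wilson interval). Because isodecoders are near-identical and the labels do not say how reads they share were handled, the division of counts among members is uncertain.

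AGC-4 was the most abundant member in all 16 libraries, in MEFs and hearts alike. It made up 47.1% and 32.5% of the AGC counts in the Ctrl_1 libraries, 51.9% and 48.3% in Cl_1, 42.4% and 27.2% in Cl_2 and 39.5% and 24.0% in Cl_3. In the AAV9-GFP hearts it made up 64.8% in mouse 5, 38.1% in mouse 6, 36.4% in mouse 14 and 37.7% in mouse 19. In the AAV9-DdCBE hearts it made up 37.8% in mouse 17, 46.0% in mouse 18, 59.5% in mouse 25 and 60.2% in mouse 26. The leading member was thus the same in hearts and MEFs. Its share varied within each group, and the range in the MEFs (24.0% to 51.9%) overlapped that in the hearts (36.4% to 64.8%); the members below it changed places.

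The order below AGC-4 differed between Ctrl_1, the Cl lines and the hearts. AGC-2 was second in both Ctrl_1 libraries (16.7% ± 4.19 of the AGC counts, SD, n = 2), ahead of AGC-6 (13.2% ± 3.49). AGC-7 was second in all 6 Cl libraries, at 16.4% ± 2.71 (SD, n = 6) against 13.7% ± 3.35 for AGC-2. AGC-6 was second in 7 of 8 hearts, at 23.5% ± 5.85 in the AAV9-GFP hearts (SD, n = 4), ahead of AGC-7 at 17.7% ± 4.19. In mouse 17, a 10X heart, AGC-7 was second at 13.6%, just ahead of AGC-6 at 12.5%. The ranges of the members in second place and of those just below overlapped within each of the 3 sets, although inside every Ctrl_1, Cl and AAV9-GFP library the former was the higher.

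**Figure D1:**
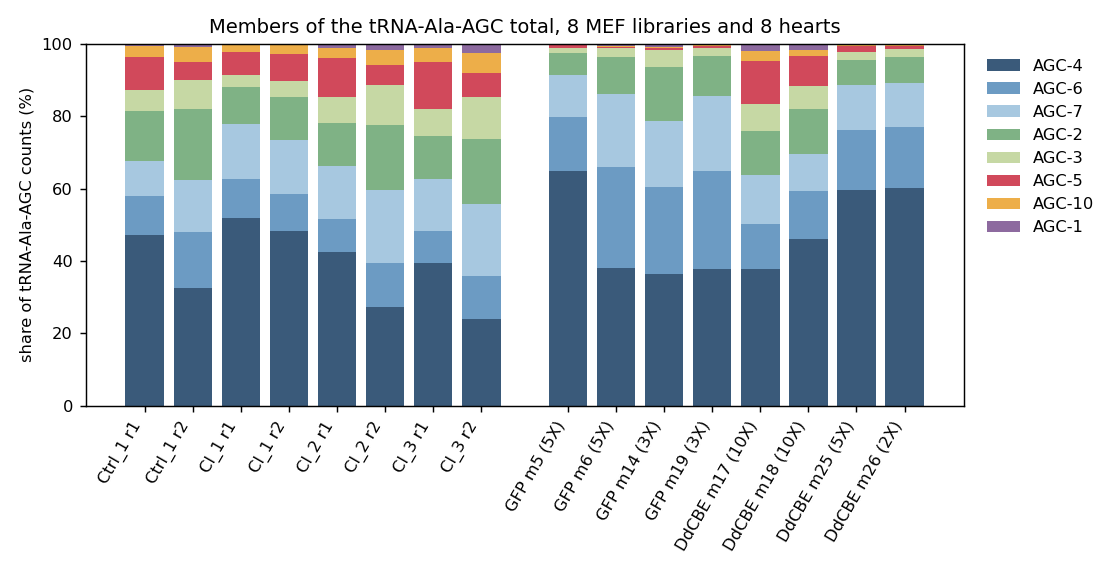
Stacked bars give each member's share of the tRNA-Ala-AGC counts (percent) in 8 MEF libraries (r1 and r2 are the passages) and 8 hearts (m is the mouse number, the X label in brackets). AGC-4 is the tallest block in every bar, and AGC-5 (red) and AGC-10 (orange), clear in the MEFs, are thin in the AAV9-GFP hearts and clear again in the 10X hearts.

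The AGC tRNA as a whole took an overlapping part of nuclear tRNA counts in Ctrl_1 and the Cl lines. Its share of nuclear counts was 5.01% and 3.39% in Ctrl_1, 4.65% and 4.33% in Cl_1, 4.90% and 3.51% in Cl_2 and 5.12% and 3.62% in Cl_3. The 6 Cl libraries (4.36% ± 0.67, SD) overlapped Ctrl_1 (4.20% ± 1.15, SD, n = 2), whose replicate 2, at 3.39%, was the lowest MEF library. An exact two-sided permutation test gave p = 0.786. Such a test of 6 against 2 libraries takes each passage as a unit, and mixes the spread between lines with that between passages. On anticodon sums the mean of the Cl lines differed from Ctrl_1 by 0.10 on the log2 scale (SE 0.20, edgeR quasi-likelihood adjusted p = 0.690), where 42.9% of 70 anticodons passed. Left out in turn, replicate 2 of Ctrl_1 gave -0.14 and replicate 1 of Ctrl_1 gave 0.37, neither past the threshold of 0.05. The single lines gave 0.14 in Cl_1 (24.3% of anticodons called), 0.04 in Cl_2 (35.7%) and 0.12 in Cl_3 (25.7%), with adjusted p-values from edgeR of 0.675, 0.916 and 0.752, and the lines did not differ past the threshold (F test adjusted p = 0.955, against 1.43%).

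The spread in that total lay mostly in AGC-4 and AGC-5, which differed between the passages of a line more than the other members did. AGC-4 was at 24353 CPM (read counts brought to a common library size by TMM) in replicate 1 and 11058 in replicate 2 of Ctrl_1, 24311 and 20080 in Cl_1, 20131 and 8990 in Cl_2 and 19117 and 8040 in Cl_3. AGC-5 was at 4781 and 1635 CPM in Ctrl_1, 2982 and 3129 in Cl_1, 5012 and 1825 in Cl_2 and 6391 and 2197 in Cl_3. Replicate 1 was thus well above replicate 2 for both members in 3 of 4 lines, and close to it in Cl_1. Averaged over the lines, replicate 1 lay above replicate 2 by 1.12 (log2) in AGC-5 and by 0.96 in AGC-4, the largest and second largest of such mean differences among all 201 rows tested. AGC-2, AGC-3, AGC-6, AGC-7 and AGC-10 differed between passages by at most 0.24 in any line, AGC-1 by at most 0.54 and AGC-12, with 7 to 37 counts, by at most 0.90. Without AGC-4 and AGC-5 the remaining members took 2.19% and 2.13% of nuclear counts in Ctrl_1, 1.94% and 1.91% in Cl_1, 2.30% and 2.36% in Cl_2 and 2.42% and 2.51% in Cl_3. That remainder, chosen after the values were seen, was lowest in Cl_1, below Ctrl_1, and highest in Cl_3, above it. What set the passages apart was not tested.

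**Figure D2:**
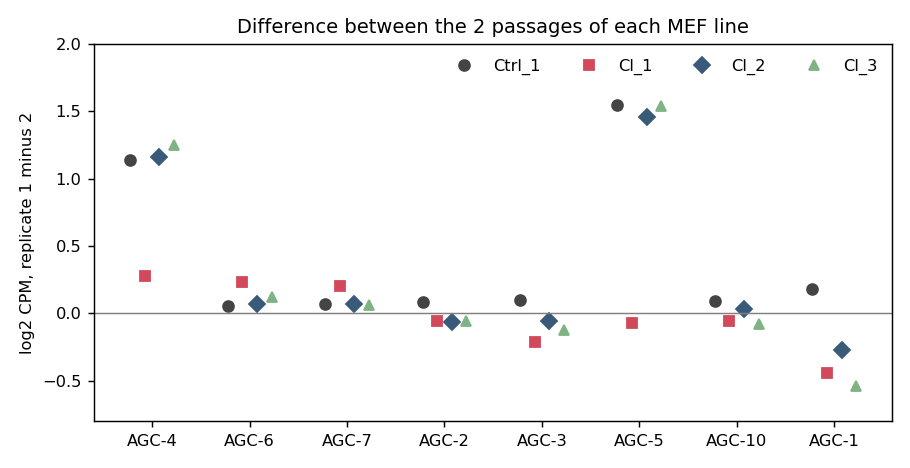
Each point is the log2 CPM of replicate 1 minus that of replicate 2 for 1 MEF line, by member. AGC-4 and AGC-5 lie between 1.14 and 1.55 in Ctrl_1, Cl_2 and Cl_3 and at 0.28 and -0.07 in Cl_1, while the other members shown stay within 0.54 of 0.

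Against Ctrl_1, AGC-7 rose in every Cl line, AGC-2 fell in every Cl line, and AGC-6 fell in Cl_2, in Cl_3 and on average. In Cl_2 and Cl_3 the calls of AGC-2 and AGC-6 were lost on leaving out some single libraries, as given below. AGC-7 was at 5077 and 4833 CPM in Ctrl_1, 7098 and 6167 in Cl_1, 6957 and 6650 in Cl_2 and 6878 and 6598 in Cl_3. All 6 Cl libraries lay above both Ctrl_1 libraries, and the 3 lines averaged a 1.36-fold rise (log2 0.44, SE 0.07, edgeR adjusted p = 0.00211). AGC-2 was at 7094 and 6696 CPM in Ctrl_1, 4815 and 5021 in Cl_1, 5649 and 5905 in Cl_2 and 5762 and 6003 in Cl_3. Here all 6 Cl libraries lay below Ctrl_1, averaging a log2 change of -0.32 (edgeR adjusted p = 0.00224, SE 0.05). AGC-6 was at 5541 and 5332 CPM in Ctrl_1, 5006 and 4252 in Cl_1, 4305 and 4098 in Cl_2 and 4310 and 3972 in Cl_3. It too was lower in all 6 Cl libraries, averaging a log2 change of -0.33 (edgeR adjusted p = 0.00795, SE 0.07), and without replicate 1 of Ctrl_1 its adjusted p was 0.0564. Averaged over the Cl lines, 1 of 9 members tested thus rose and 2 fell. Of all 201 rows, 22.9% rose and 25.4% fell (46 and 51 rows). With library totals as the scale 61 and 35 rows did, and again 1 and 2 members. With nuclear rows only, 1 member rose and 3 fell, against 40 and 50 of 175 rows. The added member was AGC-10 (log2 -0.19, edgeR adjusted p = 0.0493). When passages were added up so that 3 lines faced 1, no member passed and 9 of 221 rows did (edgeR, with a single summed library as control; AGC-7 0.46, adjusted p = 0.172; AGC-2 -0.32, adjusted p = 0.340; AGC-6 -0.31, adjusted p = 0.354).

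AGC-1, AGC-3 and AGC-10 moved in opposite directions in different Cl lines. AGC-1 was at 333 and 294 CPM in Ctrl_1, 95.6 and 130 in Cl_1, 470 and 568 in Cl_2 and 545 and 791 in Cl_3. It fell 2.78-fold in Cl_1 (log2 -1.47, SE 0.24, edgeR adjusted p = 0.00302). It rose 1.66-fold in Cl_2 (0.73, SE 0.23, edgeR adjusted p = 0.0363) and 2.13-fold in Cl_3 (1.09, SE 0.23, adjusted p = 0.00712). Its Cl_2 change ran from 0.58 to 0.88 with 1 library left out. That call was lost without any 1 Ctrl_1 or Cl_2 library. AGC-3 was at 2971 and 2777 CPM in Ctrl_1, 1587 and 1841 in Cl_1, 3498 and 3648 in Cl_2 and 3585 and 3912 in Cl_3. It followed the same order, with log2 changes of -0.75 (edgeR adjusted p = 0.00145), 0.31 (adjusted p = 0.0324) and 0.38 (adjusted p = 0.0144). The Cl_2 call was lost with nuclear rows only (0.22, edgeR adjusted p = 0.0988) and on leaving out any 1 library of Ctrl_1, Cl_2 or Cl_3. AGC-10 was at 1521 and 1429 CPM in Ctrl_1, 922 and 961 in Cl_1, 1419 and 1392 in Cl_2 and 1815 and 1915 in Cl_3. It fell in Cl_1 (-0.65, edgeR adjusted p = 0.00177), rose in Cl_3 (0.34, adjusted p = 0.0181) and was at -0.07 in Cl_2 (adjusted p = 0.574). The Cl_3 call was lost with no filter (edgeR adjusted p = 0.0694) and on leaving out any 1 Ctrl_1 or Cl_3 library. Cl_1 was the lowest line for all 3 members and Cl_3 the highest.

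The Cl lines themselves differed in those members. An edgeR F test over the 3 Cl lines passed for AGC-3 (adjusted p = 7.55e-04), AGC-1 (adjusted p = 0.00113), AGC-10 (adjusted p = 0.00113) and AGC-2 (adjusted p = 0.0430), 4 of 9 members, against 24.4% of all rows. It did not pass for AGC-7 (adjusted p = 0.930), AGC-6 (0.361), AGC-4 (0.514), AGC-5 (0.816) or AGC-12 (0.416).

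In Cl_2 and Cl_3 the AGC-2 call was lost with library totals as the scale (log2 -0.15, edgeR adjusted p = 0.138, and -0.09, adjusted p = 0.336). It was lost with no filter too (edgeR adjusted p = 0.0726 and 0.119). In Cl_2 it was also lost without replicate 1 of Ctrl_1 or of Cl_2 (range -0.29 to -0.21). In Cl_3 it was lost without any 1 Ctrl_1 or Cl_3 library or replicate 1 of Cl_2 (-0.26 to -0.20). The AGC-6 call was lost in Cl_2 without any 1 Ctrl_1 or Cl_2 library (-0.40 to -0.34). In Cl_3 it was lost without replicate 2 of Cl_3 (-0.46 to -0.33). Line by line, Cl_1 had 1 member higher and 4 lower than Ctrl_1, against 14.9% and 18.9% of all rows (33.8% in either direction). Cl_2 had 3 higher and 2 lower, against 25.9% and 20.4% (54 and 25 rows in place of 52 and 41 with library totals). Cl_3 had 4 higher and 2 lower, against 26.4% and 24.4% (70 and 30 rows in place of 53 and 49). In Cl_1 the 5 called members kept their direction whichever library was left out. In Cl_2 fewer members were called without any 1 Ctrl_1 or Cl_2 library, which leaves that line with 1. In Cl_3, calls of members were lost without any 1 Ctrl_1 or Cl_3 library. Calls over all rows fell too in these Cl_2 fits, and in Cl_3 without replicate 2 of Ctrl_1 or of Cl_3. With 1 library left out, AGC-7 ran from 0.43 to 0.49 in Cl_2 and from 0.40 to 0.48 in Cl_3. AGC-1 ran from 0.80 to 1.33 in Cl_3. AGC-4 and AGC-5 passed in no line, with SEs of 0.54 for AGC-4 and 0.67 for AGC-5, the highest among the 9 members.

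**Figure D3:**
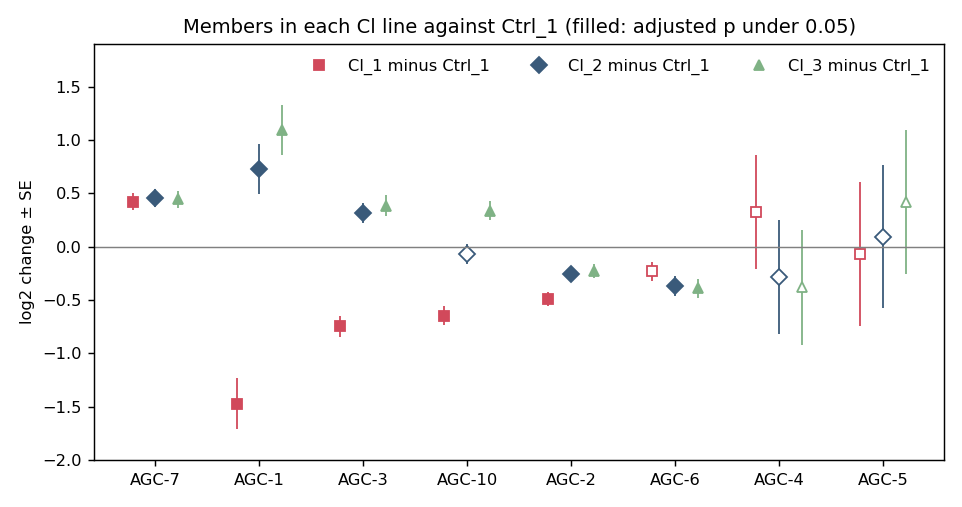
Points give the log2 change of each member in Cl_1, Cl_2 and Cl_3 against Ctrl_1 with its SE, filled where the edgeR adjusted p is under 0.05. AGC-7 lies near 0.44 in all 3 lines, AGC-1 runs from -1.47 in Cl_1 to 1.09 in Cl_3, and the bars of AGC-4 and AGC-5 are the longest.

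Averaged over the Cl lines, no member's part of the AGC tRNA changed past the threshold (0 of 9 members by edgeR's diffSpliceDGE, 0 at an unadjusted p under 0.05, against 24.9% of 169 rows). This test takes 1 spread for all members of an anticodon. By row, the SE in the Cl mean was 0.43 for AGC-4 and 0.55 for AGC-5, against 0.07 for AGC-7. The test can therefore miss a shift in the steadier members, such as AGC-7 (0.33 against its fellow members). It does not show that their part was unchanged. In Cl_1 1 member passed, AGC-1, which lost ground to its fellow members by 1.05 on the log2 scale (diffSpliceDGE adjusted p = 0.0436, against 20.1% of rows). No member passed in Cl_2 (0 of 9, against 21.3% of rows; smallest unadjusted p 0.128) or in Cl_3 (0 of 9, against 29.0%), where AGC-1 alone had an unadjusted p under 0.05. As a share of the AGC counts, AGC-7 was higher in all 6 Cl libraries (16.4% ± 2.71, SD) than in both Ctrl_1 libraries (12.0% ± 3.09, SD). The groups nearly touched, at 14.21% in Cl_3 replicate 1 and 14.19% in Ctrl_1 replicate 2. An exact permutation test of that share gave p = 0.0714 (adjusted p = 0.643 over 9 measures; the smallest p that 6 against 2 allows is 0.0357), and over the 3 lines against 1 it gave 0.25, the smallest possible.

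The other alanine tRNAs gave no common direction in the MEFs. Of 10 tested rows with the TGC or CGC anticodon, 4 rose and 3 fell when the Cl lines were averaged, with a median log2 change of 0.19, beside -0.02 for the AGC members and -0.00080 for all rows. tRNA-Ala-TGC-6 rose (log2 1.83, edgeR adjusted p = 1.15e-04) and tRNA-Ala-TGC-2 fell (-0.20, edgeR adjusted p = 0.0145). Of 21 rows of other tRNAs with adenosine as first anticodon base, the substrates of the same deaminase, 3 rose, among them tRNA-Leu-AAG-2 (0.53, edgeR adjusted p = 0.00304), and 6 fell, among them tRNA-Thr-AGT-2 (-0.32, edgeR adjusted p = 0.00224).

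In the hearts, the AGC tRNA took a larger part of nuclear tRNA counts in all 4 AAV9-DdCBE mice than in any AAV9-GFP mouse. Its share was 3.58% in mouse 5, 2.37% in mouse 6, 2.63% in mouse 14 and 2.36% in mouse 19 with AAV9-GFP. With AAV9-DdCBE it was 4.13% in mouse 17, 4.53% in mouse 18, 4.49% in mouse 25 and 3.93% in mouse 26. With all counts as denominator the groups overlapped, mouse 17 at 1.66% lying below mouse 5 at 2.24%, and the difference was 0.69 points in place of 1.54. In such bulk samples, fewer cells of a type and less tRNA per cell cannot be told apart. By nuclear counts the groups did not overlap (4.27% ± 0.29 against 2.74% ± 0.58, SD, n = 4 each; exact two-sided permutation p = 0.0286, the smallest that 4 against 4 allows, adjusted p = 0.129 over 9 measures). Of 48 nuclear anticodons 4.17% separated the groups in this way, the other being tRNA-Gly-GCC, at 3.31% ± 0.08 against 3.07% ± 0.15 (SD, n = 4 each).

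On anticodon sums, with mitochondrial tRNAs in the total, the AGC tRNA lay 0.61 above AAV9-GFP on the log2 scale (SE 0.16, 1.52-fold). It did not pass the threshold (edgeR adjusted p = 0.340), and 0.0% of 70 anticodons did. DESeq2 gave an adjusted p of 0.00963, and without mouse 5 the edgeR value was 0.75 with an adjusted p of 0.0175. In the same fit tRNA-Ala-TGC was at -0.03 and tRNA-Ala-CGC at -0.08. The difference from AAV9-GFP was of like size for the 10X hearts (0.59, edgeR adjusted p = 0.188), the 5X heart (0.68) and the 2X heart (0.55), and 10X minus the other AAV9-DdCBE hearts was -0.02.

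The members behind that larger share differed between the AAV9-DdCBE hearts. AGC-4 took 2.67% of nuclear counts in mouse 25 and 2.37% in mouse 26, against 1.56% in mouse 17 and 2.09% in mouse 18. Among AAV9-GFP hearts it took 2.32% in mouse 5 and 0.89% to 0.96% in the other 3. Mouse 5 was thus at the level of mice 25 and 26, and the groups overlapped. All members but AGC-4 together took 2.57% and 2.45% in the 10X hearts, 1.82% in mouse 25, 1.57% in mouse 26 and 1.26% to 1.67% in the AAV9-GFP hearts. The 10X hearts were therefore highest in the other members, and mice 25 and 26 highest in AGC-4.

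**Figure D4:**
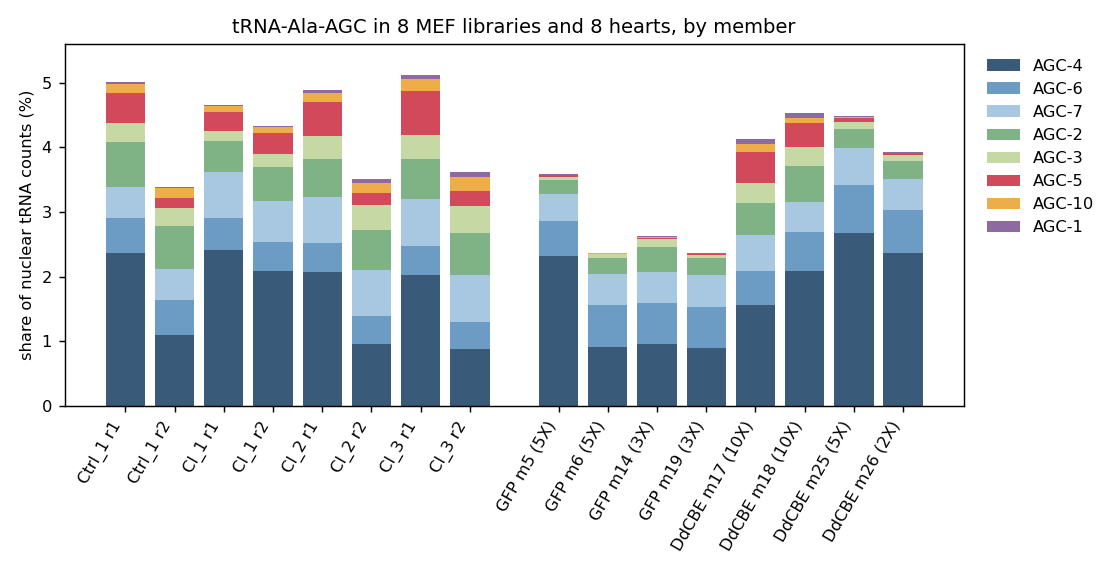
Stacked bars give the share of nuclear tRNA counts (percent) taken by each member in the 16 libraries. The AAV9-DdCBE hearts stand at 3.93% to 4.53%, above the AAV9-GFP hearts at 2.36% to 3.58%; in mice 25 and 26 most of the bar is AGC-4, and in the 10X hearts AGC-5 and AGC-2 are wider.

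In the 10X hearts 4 members rose against AAV9-GFP, AGC-5 and AGC-10 by more than 10-fold. AGC-5 was at 163, 59.8, 76.7 and 54.7 CPM in AAV9-GFP mice 5, 6, 14 and 19, and at 2053 and 1886 in the 10X mice 17 and 18. Mouse 25 (423) and mouse 26 (238) lay between them and above every AAV9-GFP heart. The log2 change of the 10X hearts was 4.48 (SE 0.41, 22.3-fold, edgeR adjusted p = 4.33e-05). AGC-10 was at 32.3, 38.2, 41.3 and 32.2 CPM in the AAV9-GFP hearts, 480 and 339 in the 10X hearts, 74.7 in mouse 25 and 43.4 in mouse 26. Its log2 change was 3.51 (SE 0.24, 11.4-fold, edgeR adjusted p = 8.23e-06), and on the CPM scale all 4 AAV9-DdCBE hearts were above all AAV9-GFP hearts. Mouse 26 was not clear of AAV9-GFP on other scales: as a share of nuclear counts it was at 0.0070% against 0.0072% in mouse 14, and as a share of AGC counts at 0.178% against 0.275%.

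AGC-1 and AGC-3 rose less in the 10X hearts and did not separate the other AAV9-DdCBE hearts from AAV9-GFP. AGC-1 was at 45.0, 65.3, 125 and 58.3 CPM in the AAV9-GFP hearts, 352 and 381 in the 10X hearts, 97.6 in mouse 25 and 83.8 in mouse 26 (10X log2 change 2.33, SE 0.36, edgeR adjusted p = 0.00111). AGC-3 was at 307, 354, 708 and 355 CPM in the AAV9-GFP hearts, 1333 and 1377 in the 10X hearts, 557 in mouse 25 and 516 in mouse 26 (10X log2 change 1.65, SE 0.32, edgeR adjusted p = 0.00382). Mouse 14 was the highest AAV9-GFP heart for both. Without mouse 17 the AGC-3 change was 1.68 with an adjusted p of 0.0528; the lone 10X heart is then assumed to vary like the other groups.

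In AGC-6, AGC-2, AGC-7 and AGC-4 the call in the 10X hearts depended on the setting or on single hearts. AGC-6 was at 3448, 4157, 3602 and 3961 CPM in the AAV9-GFP hearts, 2191 and 2942 in the 10X hearts, 4254 in mouse 25 and 4090 in mouse 26. Its log2 change of -0.56 passed (edgeR adjusted p = 0.0243), but missed the threshold under every other scaling, filter and tool tried and without any 1 of mice 5, 6, 17, 19, 25 and 26; as a share of nuclear counts the 10X hearts overlapped AAV9-GFP. AGC-2 was at 1381, 1567, 2233 and 1606 CPM in the AAV9-GFP hearts, 2109 and 2768 in the 10X hearts and 1750 and 1753 in mice 25 and 26 (0.52, edgeR adjusted p = 0.0668), and it missed the threshold with library totals too. It rose with DESeq2's size factors (0.71, edgeR adjusted p = 0.0372), nuclear rows only (0.79, adjusted p = 0.0105), no filter, the filter by 4 groups and the DESeq2 test (adjusted p = 0.0172), and without mouse 14, 25 or 26. AGC-7 was at 2663 to 3049 CPM in the AAV9-GFP hearts and at 2374 and 2299 in the 10X hearts (-0.29, edgeR adjusted p = 0.0935; -0.31 and 0.0366 without mouse 14). AGC-4 was at 14823, 5688, 5464 and 5521 CPM in the AAV9-GFP hearts, 6621 and 10228 in the 10X hearts and 15265 and 14676 in mice 25 and 26 (0.10, edgeR adjusted p = 0.845). Without mouse 5 the AGC-4 change was 0.78 and passed (edgeR adjusted p = 0.0313), and without mouse 18 it was -0.24.

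Of 8 members tested, 4 rose and 1 fell in the 10X hearts, against 23.9% of 180 rows that rose and 27.8% that fell. Their median log2 change was 1.09, beside -0.23 for all rows. That median of all rows was -0.04 with DESeq2's size factors, under which 49 rows rose and 15 fell in place of 43 and 50; 5 members then rose and none fell (AGC-6 -0.37, edgeR adjusted p = 0.0877). With library totals 48 rows rose and 9 fell. Nuclear tRNAs made up 40.1% of all counts in mouse 17 and 55.5% in mouse 18, against 56.7% to 62.6% in the other 6 hearts; the part of this in the members' changes was not tested, and AGC-1, AGC-3, AGC-5 and AGC-10 also rose with nuclear rows only. The split by X label was made after the comparison of all 4 AAV9-DdCBE hearts was known, and rests on 2 hearts.

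Against the 5X and 2X AAV9-DdCBE hearts, AGC-10 (2.85, edgeR adjusted p = 1.99e-04), AGC-5 (2.63, adjusted p = 0.00479), AGC-1 (2.02, adjusted p = 0.0134) and AGC-3 (1.34, adjusted p = 0.0367) were higher in the 10X hearts, and AGC-6 lower (-0.70, adjusted p = 0.0271), against 20.6% and 10.6% of all rows (31.1% in either direction). AGC-5, AGC-10, AGC-1 and AGC-3 also gained on their fellow members there, 4 of 8 against 28.5% of rows by diffSpliceDGE. This comparison shares the 10X hearts with the one above. With DESeq2's size factors 39 rows were higher and 7 lower in place of 37 and 19. Of 8 members, only AGC-10 passed without mouse 17 (20 of 180 rows in all), and 3 passed without mouse 25 (30 of 182 rows) or without mouse 26 (25 of 181 rows), against 56 of 180 rows with all hearts. The AGC-6 call was lost under every other scaling and filter tried, and was made by the DESeq2 test. Of the single hearts, the 5X one gave AGC-5 a log2 difference of 2.26 from AAV9-GFP (edgeR adjusted p = 0.0716) and AGC-10 one of 1.06 (adjusted p = 0.297). The 2X one gave 1.43 (adjusted p = 0.998) and 0.27 (adjusted p = 0.998), and no member passed in either, against 0.556% and 0.0% of rows. With 1 heart each, these fits take the spread from the other groups, and so does the fit in which AGC-5 gained 1.15 on its fellow members in the 5X heart (diffSpliceDGE adjusted p = 0.0442, 1 of 8 members against 2.65% of rows); that value has no replicate.

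With all 4 AAV9-DdCBE hearts against all 4 AAV9-GFP hearts, edgeR called none of the 8 members, and 0.0% of 180 rows; 4 members and 35 of all rows had an unadjusted p under 0.05. The members were AGC-5 (log2 difference 3.70, SE 0.73), AGC-10 (2.70, SE 0.70), AGC-1 (1.64, SE 0.58) and AGC-3 (1.13, SE 0.42), with adjusted p-values of 0.0775, 0.0775, 0.134 and 0.139. DESeq2 called these 4, among 27 of 180 rows, and library totals gave AGC-5 and AGC-10, among 14 of 180. Without mouse 26 edgeR called all 4, among 31 of 181 rows, and without mouse 25 AGC-5 and AGC-10, among 19 of 182. The members' median difference was 0.85, beside -0.10 for all rows.

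By diffSpliceDGE, the division among members shifted in that comparison. AGC-5 gained on its fellow members by 2.28 on the log2 scale (diffSpliceDGE adjusted p = 5.78e-05) and AGC-10 by 1.59 (adjusted p = 0.0332), 2 of 8 members against 14.6% of 151 rows. Leaving out any 1 of the AAV9-GFP hearts, mouse 17 or mouse 18 gave 1 member. AGC-5 made up 0.37% to 0.71% of the AGC counts in the AAV9-GFP hearts and 11.7%, 8.49%, 1.65% and 0.98% in mice 17, 18, 25 and 26, with no overlap (exact permutation p = 0.0286, adjusted p = 0.129 over 9 measures); 9.8% of 153 rows separated the groups by their share of their own anticodon. In the 10X hearts AGC-5 (2.94), AGC-10 (2.27), AGC-1 (1.45) and AGC-3 (0.98) gained ground, 4 of 8 against 34.4% of rows. Their diffSpliceDGE adjusted p-values were 1.71e-11, 5.57e-08, 8.47e-05 and 0.00180. This test takes 1 spread for all members of an anticodon. Its p-values here therefore draw on the members as well as the hearts, and do not measure the spread between hearts alone.

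The other alanine tRNAs gave no common direction in the hearts either. Of 8 tested rows with the TGC or CGC anticodon, tRNA-Ala-TGC-1 rose in the 10X hearts (log2 1.75, edgeR adjusted p = 0.00449) and 3 fell, among them tRNA-Ala-TGC-4 (-0.63, edgeR adjusted p = 0.0208), with a median of -0.38. Of 22 rows of other tRNAs with adenosine as first anticodon base, 7 rose, led by tRNA-Val-AAC-4 (4.21, edgeR adjusted p = 8.23e-06) and tRNA-Val-AAC-2 (3.11, edgeR adjusted p = 8.23e-06), and 8 fell, with a median of -0.33. Under the DESeq2 size factors fewer rows of the whole table fell (15), as given above.

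The MEF and heart tables were made separately, so their levels were set side by side without a test, as shares of nuclear counts over 165 nuclear rows named alike. AGC-5 took 0.359% of nuclear counts in the 8 MEF libraries (0.163% to 0.676%) and 0.0143% in the 4 AAV9-GFP hearts (0.0088% to 0.0255%), a 25.1-fold difference. AGC-10 took 0.147% (0.0916% to 0.208%) and 0.0059% (0.0051% to 0.0072%), a 25.0-fold difference. AGC-3 was 4.31-fold and AGC-2 2.16-fold higher in the MEFs than in AAV9-GFP hearts, with no overlap, and AGC-1 3.45-fold higher with overlap. AGC-6 was lower in all MEF libraries (0.472%) than in any AAV9-GFP heart (0.618%). AGC-4 (1.74% and 1.27%) and AGC-7 (0.648% and 0.467%) overlapped.

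So 4 of 9 members lay above all AAV9-GFP hearts in every MEF library and 1 below, against 35.2% and 23.6% of the 165 rows. With all 8 hearts in place of the 4, no member was clear of the hearts in either direction, against 18.2% and 19.4% of rows. The hearts inside the MEF range were the 10X ones: both for AGC-2 (0.497% and 0.564%), AGC-3 (0.314% and 0.281%) and AGC-5 (0.484% and 0.384%), and mouse 17 for AGC-10 (0.113%) and AGC-6 (0.517%). Over AAV9-GFP hearts the 10X shares were 30.3-fold higher for AGC-5, 15.5-fold for AGC-10, 6.60-fold for AGC-1 and 4.16-fold for AGC-3. In division among members, the 10X hearts lay 6.26 and 10.2 percentage points from the mean MEF library (the sum of differences in one direction), against 25.8 and 26.7 points for mice 25 and 26 and 16.3 to 29.6 points for the AAV9-GFP hearts. These are descriptions of levels, and the part of cell type in them was not tested.

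**Figure D5:**
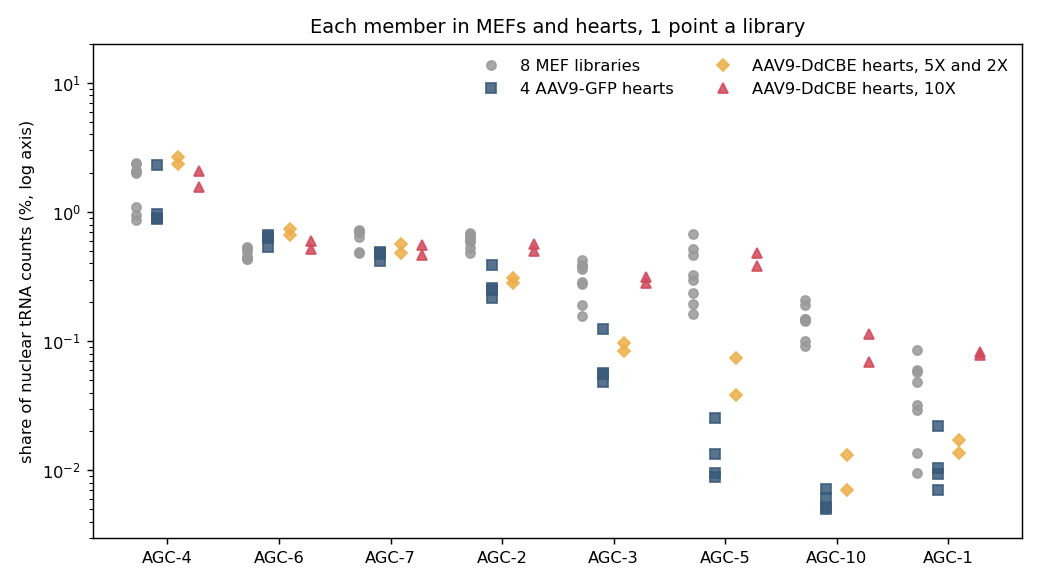
Each point is 1 library's share of nuclear tRNA counts (percent, log axis) for a member. The points of AGC-4 and AGC-7 in MEFs overlap those in AAV9-GFP hearts and AGC-6 is slightly lower in MEFs, whereas AGC-3, AGC-5 and AGC-10 are low in the AAV9-GFP hearts and near the MEF level in the 10X hearts.

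The rows whose log2 CPM followed AGC-4 most closely over the 8 MEF libraries were tRNA-Leu-CAG-2 (Pearson r = 0.76), AGC-5 (0.75) and tRNA-iMet-CAT-4 (0.75) of 174 nuclear rows. Over the 8 hearts they were tRNA-iMet-CAT-2 (0.87), tRNA-Gln-CTG-7 (0.67) and tRNA-Cys-GCA-3 (0.60) of 157. The AGC total was most like tRNA-Ser-GCT (0.65) in the MEFs and tRNA-Cys-GCA (0.78) in the hearts. Each r describes 8 libraries that share their lines, treatments and scaling, and carries no test. AGC-1 and AGC-3 had r = 0.99 over the hearts and 0.99 over the MEF libraries.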

How the data were processed

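The 8 MEF and 8 heart libraries were made by mim-tRNAseq, in which reverse transcription reads through modified bases of tRNAs. Per the labels, total RNA was taken up in TRIZOL, oxidised and beta-eliminated. Per the submitters' processing notes, reads were trimmed with cutadapt 3.5 and the build was mm39; aligner and counter: not given in the sources used here. Raw counts per tRNA transcript group were deposited by the authors, unnormalized, in 1 table for MEFs and 1 for hearts.

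From these counts, edgeR 4.0.16 (R 4.3.3) fitted quasi-likelihood models over all rows, with TMM scaling, filterByExpr (minimum count 10, minimum total 15) and Benjamini-Hochberg adjustment over all rows tested, called under 0.05. This left 201 MEF and 180 heart rows. The MEF model held 4 lines with 2 libraries each; the mean of Cl_1, Cl_2 and Cl_3 was set against Ctrl_1, then each line. The heart model held 4 against 4 mice; a second heart model split AAV9-DdCBE by X label on the rows kept by treatment, since a filter by the 4 smaller groups would have kept other rows, and that filter was run as an alternative chosen after seeing the data. Anticodon sums were fitted likewise, and diffSpliceDGE compared members with their fellow members. Shares were compared with exact two-sided permutation tests (Python 3.11.15, pandas 2.3.3), called with their adjusted p over 9 measures per table. CPM are TMM-scaled; correlations used log2 CPM with a prior count of 2. Hearts and MEFs were compared over rows with 10 or more counts per library on average.

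The alternatives were DESeq2 1.42.0 and its size factors, library totals, nuclear rows only, no filter, summed passages, the replicate number as a block, other denominators, and each library left out. Same-numbered MEF replicates correlated at r = 0.07 to 0.25 after group means were removed, under 0.1 for some pairs. The number was therefore not taken to pair them over the whole table, although AGC-4 and AGC-5 differed alike in Ctrl_1, Cl_2 and Cl_3. With the number as a block neither passed in the Cl mean (AGC-4 -0.07, edgeR adjusted p = 0.769, AGC-5 0.25, adjusted p = 0.550). Members with at least 5% of the AGC counts in a library were named in full; the others are given where a test called them. The members and lists were chosen with earlier results of these data known. The scripts were tested on simulated data. Deposited columns left unmapped numbered 0, and none was used.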

Additional observations from a re-analysis of the deposited data

Results flagged for a closer look

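Mouse 5, given AAV9-GFP, stood apart from the other 3 AAV9-GFP hearts in the share of AGC-4, at 64.8% of the AGC counts against 36.4% to 38.1%; the gap to its nearest neighbour was 0.94 of the group's range. Among 18 groups of 4 hearts examined in this way, chance alone marks about 1 in 20. Its values are part of every comparison with AAV9-GFP, and those that turned on it are given with and without it.

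The 3 Cl lines differed from each other in 4 of 9 members, against 24.4% of 201 rows, in a test that compared the Cl lines with each other. The edgeR F test gave an adjusted p of 7.55e-04 for AGC-3, 0.00113 for AGC-1, 0.00113 for AGC-10 and 0.0430 for AGC-2. AGC-1 was at -1.47 in Cl_1, 0.73 in Cl_2 and 1.09 in Cl_3 (log2 change against Ctrl_1).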

How the results depend on the processing

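Beside leave-one-out, 310 of 357 alternative values were scored as the same. Tests had to keep their direction and their side of the threshold, and counts and shares had to stay near the main value. Where values were not the same, the cause was not tested. In the mean of the Cl lines, AGC-3 (-0.02) was 0.088 with library totals and 0.065 with each line's passages added. AGC-4 (-0.11) was 0.076 with them added, and AGC-2, AGC-6 and AGC-7 then lost their calls. The AGC total without AGC-4 and AGC-5, added after seeing the data, was 0.13 on anticodon sums. It passed the threshold there (edgeR adjusted p = 0.0367), as 42.9% of 70 anticodons did in the fit with all members. By nuclear counts Cl_1 lay below Ctrl_1 in that remainder. In AAV9-DdCBE minus AAV9-GFP, AGC-7 (-0.08) was 0.023 with DESeq2's size factors, 0.013 with library totals, 0.049 with nuclear rows only, 0.022 with the DESeq2 test and 0.028 with no filter. Library totals called 2 members and DESeq2 called 4 in place of 0. DESeq2 put the AGC total past the threshold at 0.61, and at 0.59 in the 10X hearts. The AGC share, 1.54 points higher by nuclear counts, was 0.69 points higher over all counts. Leaving out each library in turn, the AGC total ran from -0.14 to 0.37 in the Cl mean and 0.51 to 0.75 in AAV9-DdCBE, and the AGC share from -0.66 to 0.96 points (Cl minus Ctrl_1). Members called ran from 1 to 5 in Cl_2, 2 to 6 in Cl_3, 0 to 4 in AAV9-DdCBE, 3 to 7 in 10X against AAV9-GFP and 1 to 7 in 10X against 5X and 2X; members with changed usage ran from 1 to 2 in AAV9-DdCBE. With all libraries, rows called were 93 of 201 in Cl_2, 102 of 201 in Cl_3 and 0 of 180 in AAV9-DdCBE. They were 93 of 180 in 10X against AAV9-GFP and 56 of 180 in 10X against 5X and 2X. The 4 members called in AAV9-DdCBE without mouse 26 were among 31 of 181 rows. Where Cl_2, Cl_3 and the 10X comparisons had the fewest members called, calls over all rows fell too. Those fits leave 1 library in a group. Such changes alone do not set the members apart from all rows. Cl mean values ran from -0.057 to 0.020 for AGC-3, -0.56 to 0.55 for AGC-4 and -0.42 to 1.11 for AGC-5, AGC-4 in 10X from -0.24 to 0.78, and AGC-7 in AAV9-DdCBE from -0.093 to 0.026. Shares of the AGC total (Cl minus Ctrl_1, points) ran from -0.60 to 1.80 for AGC-3, -8.23 to 6.42 for AGC-4, -0.96 to 3.49 for AGC-5, -5.13 to -0.20 for AGC-6 and -0.70 to 0.55 for AGC-10; AGC-2 in AAV9-DdCBE ran from -2.49 to 0.46. With the replicate number as a block, 3 members were called in the Cl mean (AGC-7 0.44, edgeR adjusted p = 8.91e-04), 6 in Cl_1, 5 in Cl_2 and 6 in Cl_3, against 3, 5, 5 and 6 without it (105, 77, 92 and 106 of 201 rows, against 97, 68, 93 and 102), and the AGC total was 0.11 (adjusted p = 0.349). Depth limits the rare members most: AGC-10 had 64 to 97 counts in the AAV9-GFP hearts (in mouse 14 0.275% of AGC counts, 95% Wilson interval 0.215% to 0.351%), and AGC-8, AGC-9 and AGC-13 are left undescribed.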
